A study of Mus musculus with 12 samples.

Results

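The 6 mouse genes Emid1, Ambp, Exoc3l4, Tmem145, Enpep and Ccdc68 were examined in yolk sacs homozygous for a point mutation in Arid1a and in wild-type yolk sacs, out of 13896 genes tested on the arrays. They were picked because their mutant and wild-type levels differed with 1 sign at both stages, so the genotype differences given here describe the choice and carry no test. Emid1 and Ambp were lower in mutants, and Exoc3l4, Tmem145, Enpep and Ccdc68 were higher. Each gene had 1 probe, printed on each array as 1 spot, and all 6 probes were well above background in both dyes on 12 of 12 arrays. Exoc3l4 appears on the array design under its older name 1200009I06Rik.

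The 4 groups were mutant E9.5, wild-type E9.5, mutant E8.5 and wild-type E8.5 (embryonic day 9.5 or 8.5), with 3 biological replicates each, 1 per array. Mutants carried Arid1a V1068G/V1068G, an exchange of valine for glycine in the DNA-binding ARID domain of the Arid1a (Baf250a) subunit of the SWI/SNF chromatin remodeller, and the background strain of all yolk sacs was CD1. Whether yolk sacs were pooled for a replicate is not stated. Each array set 500 ng of yolk sac RNA in Cy5 against 500 ng of a common Cy3 reference RNA from whole neonatal wild-type mice of mixed 129Sv and C57BL/6 background.

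The yolk sac is an extraembryonic membrane with an inner visceral endoderm that absorbs nutrients and secretes plasma proteins before the liver does, and a mesoderm layer that forms vessels and the first blood cells. SWI/SNF complexes use ATP to move nucleosomes at promoters and enhancers, and the ARID domain contacts DNA. Emid1 encodes a secreted protein with an EMI domain and collagen-like stretches. Ambp encodes a precursor that is cut into alpha-1-microglobulin, a haem-binding lipocalin, and bikunin, a Kunitz-type protease inhibitor that forms the light chain of inter-alpha-trypsin inhibitors. Enpep encodes glutamyl aminopeptidase (aminopeptidase A), a zinc enzyme of the cell surface that trims angiotensin II to angiotensin III, also known as the BP-1 antigen of early B cells. Tmem145 encodes a seven-pass membrane protein of the GOST family, whose members act in the secretory pathway. Ccdc68 encodes a coiled-coil protein that, in human cells, sits on the subdistal appendages of centrioles and helps to anchor microtubules. Exoc3l4 encodes a relative of the exocyst subunit Exoc3 (Sec6), and little is known of its role.

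The sequence before the start of these genes is shown because the mutation lies in a DNA-binding domain and the study was about promoter occupancy. RefSeq promoters (build GRCm38.p6) were used for 5 of the 6 genes, and the 250 bases before each start were searched on both strands. The searched motifs were 3 common core elements, namely the TATA box with the letters TATAAA, the CCAAT box and the GC box with the letters GGGCGG. Further motifs were those of factors active in blood and endoderm. The GATA motif was spelled AGATAA. The HNF1 half-site was spelled GTTAAT, and the HNF4 motif was spelled CAAAGTCCA. Capitals mark matches in either orientation, and the searched motifs did not overlap one another there.
Emid1 (chr11:5152323-5152480, minus strand, 158 bases): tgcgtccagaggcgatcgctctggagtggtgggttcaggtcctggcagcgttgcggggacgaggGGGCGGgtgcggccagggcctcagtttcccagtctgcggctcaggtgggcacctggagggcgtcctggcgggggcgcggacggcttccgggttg
Ambp (chr4:63154173-63154422, minus strand): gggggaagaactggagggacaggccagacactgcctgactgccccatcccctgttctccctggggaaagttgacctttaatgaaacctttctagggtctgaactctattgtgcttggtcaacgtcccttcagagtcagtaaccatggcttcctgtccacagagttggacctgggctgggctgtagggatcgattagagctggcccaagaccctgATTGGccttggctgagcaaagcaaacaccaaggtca
Exoc3l4 (chr12:111417180-111417429, plus strand): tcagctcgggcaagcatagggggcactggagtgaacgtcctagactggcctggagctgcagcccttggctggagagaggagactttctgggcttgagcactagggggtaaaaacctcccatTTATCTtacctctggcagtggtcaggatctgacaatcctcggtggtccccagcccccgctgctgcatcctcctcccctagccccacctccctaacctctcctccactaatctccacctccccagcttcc
Enpep (chr3:129332750-129332999, minus strand): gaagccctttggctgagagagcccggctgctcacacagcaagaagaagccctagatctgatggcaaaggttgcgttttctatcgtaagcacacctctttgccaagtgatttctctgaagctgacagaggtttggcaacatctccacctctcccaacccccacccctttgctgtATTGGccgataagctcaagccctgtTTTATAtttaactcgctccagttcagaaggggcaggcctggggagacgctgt

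These promoters were unlike one another. The Emid1 window held 31 CpG dinucleotides and 5 GC boxes at 77.6% GC, a CpG count at or above that of 95.4% of 32851 mouse promoters, whose median was 6. Only the part of it before the longest gene model is printed, which leaves out 92 bases with 4 of the GC boxes. A second RefSeq start of Emid1 had 6 CpG and no match, and a second start of Exoc3l4 had 3 CpG and 1 GATA match. Tmem145 had 16 CpG and 1 GC box, and its sequence is not printed. Ambp had 2 CpG and 1 CCAAT box match, Exoc3l4 had 4 CpG and 1 GATA match, and Enpep had 6 CpG, 1 TATA box match starting 52 bases before the gene and 1 CCAAT box match. Such matches are common, since the GC box occurred in 32.7% of promoters, the CCAAT box in 33.8%, the TATA box in 12.4% and the GATA motif in 9.99%. The HNF1 half-site, found in 6.43% of promoters, and the HNF4 motif, found in 0.384%, had no match in these windows.

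Values below are log2 ratios of yolk sac RNA over the reference, so a negative value means less signal than in neonatal RNA and not absence. Yolk sac RNA was in Cy5 on every array, so a dye effect and a difference from the reference cannot be told apart. Between 47.4% and 50.7% of probes were well above background in Cy5 on an array, and the median standard error of a genotype difference was 0.07. By the grid name and scan time in the file headers there were 3 slides, although the files of the third repeat the barcode of the second. Each carried all 4 groups, and every group kept the same place, so place and group cannot be told apart. By an adjusted p under 0.05 (limma, Benjamini-Hochberg over all genes), 0.892% of genes were higher and 1.08% lower in mutants at E9.5, and 0.705% higher and 0.741% lower at E8.5. At both stages 34 genes (0.245%) were higher and 53 genes (0.381%) were lower. Ordered by the smaller of their differences, Tmem145, Exoc3l4, Enpep and Ccdc68 ranked 1, 3, 4 and 13 among the 34. Emid1 and Ambp ranked 1 and 6 among the 53. These ranks rest on the values from which the genes were picked, so they describe the choice and carry no test. On the higher side Ifi27l2b (0.73) followed Tmem145, Leap2 (0.61) followed Enpep, and Cpb2 (0.462) and Ggt1 (0.454) stood on either side of Ccdc68 (0.458). On the lower side Csf2rb (1.06 in size) followed Emid1, and the entries on either side of Ambp had no official symbol. Arid1a itself did not pass the test in mutants against wild type, with 0.16 ± 0.06 at E9.5 (adjusted p = 0.3) and 0.05 ± 0.06 at E8.5 (adjusted p = 0.825, limma), and a point mutation need not change its transcript.

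4 arrays stood apart by markers of other tissues. Prl4a1, a placental prolactin, read 3.74 on mutant E9.5 replicate 3, 4.30 on wild-type E9.5 replicate 3 and 5.69 on mutant E8.5 replicate 3, against 0.26 to 1.53 elsewhere. Wild-type E8.5 replicate 2 read 0.01 for the heart gene Myl7 and 0.06 for the neural gene Hes5, the highest of all arrays for both. Summed Cy5 of the 14 visceral endoderm markers lay between 89760 and 106700 units in mutants and between 98530 and 109700 in wild types at E9.5, and between 76440 and 82230 in mutants and between 77580 and 83410 in wild types at E8.5. That of 8 of 10 megakaryocyte and myeloid markers was 1733 to 1944 in mutants against 1398 to 1772 in wild types at E9.5, and 1155 to 1307 in mutants against 877.1 to 949.4 in wild types at E8.5. That of 10 primitive red cell markers was 82940 to 108100 in mutants against 84240 to 88740 in wild types at E9.5, and 74450 to 96190 in mutants against 69800 to 74470 in wild types at E8.5. None of the 10 red cell markers was called by limma at either stage. At E8.5 all 10 were higher in mutants (0.06 to 0.74, list median 0.28), and 5 had an unadjusted p under 0.05. At E9.5 their signs were mixed (list median 0.09), and 0 had an unadjusted p under 0.05. Among all 13896 genes, 1721 had such a p at E8.5 and 1661 at E9.5. Of the 8 megakaryocyte and myeloid markers, Pf4 (1.26) and Treml1 (0.44) were called at E8.5. Itga2b (-0.07) and Fcer1g (-0.11) were lower in mutants at E8.5, and none of the 8 was called at E9.5. Of the 14 visceral endoderm markers, only Sox17 was called, higher in mutants at E8.5 (0.39). Of 10 endothelium markers, only Cldn5 was called, higher in mutants at E8.5 (0.24). Of 12 mesothelium and mesenchyme markers, 3 rose in mutants at E8.5 by limma, Col1a1 (0.77), Col3a1 (0.61) and Pdgfra (0.37), and Krt7 fell (-0.83). None of these 12 was called at E9.5, where 3 had an unadjusted p under 0.05. The part of these markers in the genotype differences was not tested. In bulk RNA, fewer cells of a type and less RNA per cell cannot be told apart. Xist, the RNA of the inactive X chromosome, was low (-4.18 to -4.01) on 2 mutant E8.5 arrays (replicates 2 and 3) and on wild-type E9.5 replicate 2, and -1.98 to -0.52 on the other arrays. Over the arrays with high Xist, all 6 genes kept the sign of their difference, and Emid1, for example, differed by -1.14 at E9.5 and -1.15 at E8.5, where 1 mutant array remained.

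**Figure D1:**
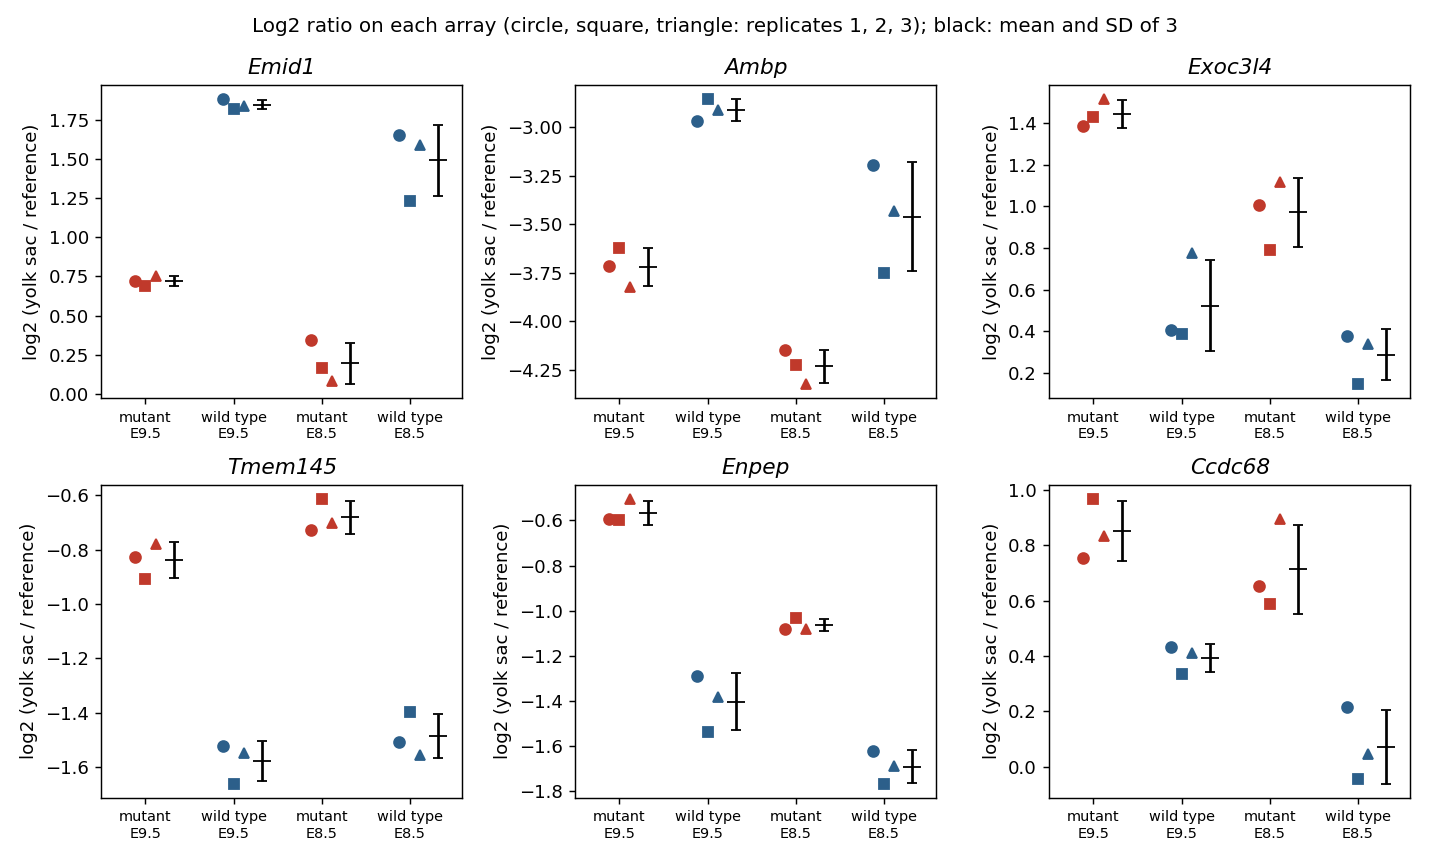
Log2 ratio of yolk sac over reference RNA for each of the 6 genes on the 12 arrays, in mutants (red) and wild types (blue) at E9.5 and E8.5; black bars are the mean and SD of 3 arrays. In every panel the mutant and wild-type points of a stage stay apart, with mutants below wild types for Emid1 and Ambp and above them for the other 4.

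Emid1 had the largest difference of the 6 at both stages with the offset of 50 units, while with processed signals that of Tmem145 was larger at both. It read 0.72, 0.69 and 0.75 in mutants at E9.5, against 1.88, 1.82 and 1.84 in wild types. At E8.5 it read 0.34, 0.16 and 0.08 in mutants, against 1.65, 1.23 and 1.59 in wild types. All mutant arrays of both stages lay below all wild-type arrays, also across stages. The difference was -1.12 ± 0.09 at E9.5, a level 2.18-fold lower in mutants, and -1.29 ± 0.09 at E8.5, a level 2.45-fold lower. Within slides it ran from -1.16 to -1.08 at E9.5 and from -1.50 to -1.07 at E8.5. The smallest of these was on the slide of wild-type E8.5 replicate 2, and without the 4 arrays that stood apart the differences were -1.15 and -1.37. The Emid1 spot lies in row 532, the last of the array, where the other 83 genes of rows 528 to 532 had median differences of 0.01 at E9.5 and -0.02 at E8.5 and none below -0.31. Over the wider band of rows 512 to 532, with 415 other genes, the medians were 0.01 at E9.5 and -0.02 at E8.5 and the lowest differences -0.89 at E9.5 and -1.09 at E8.5. The Exoc3l4 spot lies in row 527, within this wider band and in the same column (20) as Emid1. The Ccdc68 spot lies in column 1, the first of the array, and columns were not compared. Position as a source of these differences was not tested further.

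Ambp was far below its level in the neonatal reference on every array. It read -3.71, -3.62 and -3.82 in mutants at E9.5, against -2.97, -2.86 and -2.91 in wild types. At E8.5 it read -4.15, -4.23 and -4.32 in mutants, against -3.20, -3.75 and -3.43 in wild types. The groups did not overlap at either stage, but wild-type E8.5 replicate 2 reached the range of the E9.5 mutants. Its reference signal was 6855 to 8988 units above background over the 12 arrays, while yolk sac RNA gave 369.1 to 1385 units. The difference was -0.81 ± 0.11 at E9.5, a level 1.75-fold lower in mutants, and -0.77 ± 0.11 at E8.5, 1.71-fold lower. The slide values ran from -0.91 to -0.75 at E9.5 and from -0.95 to -0.48 at E8.5, the smallest again on the slide of wild-type E8.5 replicate 2. Ambp lies on chromosome 4, as does Arid1a, with 335 of the 782 tested genes of that chromosome between them.

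Before normalization, Exoc3l4 on wild-type E8.5 replicate 2 gave 247 units above background in Cy5 against 263 in Cy3. As a normalized ratio, Exoc3l4 was above its reference level on every array. It read 1.39, 1.43 and 1.52 in mutants at E9.5, against 0.41, 0.38 and 0.77 in wild types. At E8.5 it read 1.01, 0.79 and 1.12 in mutants, against 0.38, 0.15 and 0.34 in wild types. The lowest E8.5 mutant (0.79) and the highest E9.5 wild type (0.77) nearly met, and within each stage the groups did not overlap. The difference was 0.92 ± 0.10 at E9.5 (1.90-fold) and 0.68 ± 0.10 at E8.5 (1.61-fold). The highest wild-type E9.5 array and the highest mutant E8.5 array were both high in Prl4a1, and without the 4 arrays that stood apart the differences were 1.01 and 0.54.

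Tmem145 was dim in wild-type yolk sac RNA. It read -0.83, -0.91 and -0.78 in mutants at E9.5, against -1.52, -1.66 and -1.55 in wild types. At E8.5 it read -0.73, -0.61 and -0.70 in mutants, against -1.51, -1.40 and -1.55 in wild types. Mutants of both stages lay above all wild types, and the wild-type stages overlapped. The difference was 0.74 ± 0.06 at E9.5 (1.67-fold) and 0.80 ± 0.06 at E8.5 (1.75-fold), and it varied little by slide, from 0.70 to 0.77 at E9.5 and from 0.78 to 0.85 at E8.5. Its Cy5 signal above background was 59.2 to 106 units in mutants against 23.9 to 33.7 in wild types at E9.5, and 85.3 to 96.5 in mutants against 28.3 to 30.3 in wild types at E8.5. An offset of 50 units is added before the log, so the size depends on the background step: with the scanner software's processed signals the difference was 1.53 at E9.5 and 1.58 at E8.5.

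Enpep read -0.60, -0.60 and -0.50 in mutants at E9.5, against -1.29, -1.54 and -1.38 in wild types. At E8.5 it read -1.08, -1.03 and -1.08 in mutants, against -1.62, -1.77 and -1.69 in wild types. The 4 groups were all apart, in the order mutant E9.5, mutant E8.5, wild-type E9.5 and wild-type E8.5. The difference was 0.84 ± 0.07 at E9.5 (1.79-fold) and 0.63 ± 0.07 at E8.5 (1.54-fold). Within slides it ran from 0.69 to 0.94 at E9.5 and from 0.54 to 0.73 at E8.5. Its Cy5 signal was 152 to 205 units in mutants against 65.6 to 94.9 in wild types at E9.5, and processed signals gave 1.13 at E8.5 in place of 0.63.

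Ccdc68 had the smallest difference of the 6 at E9.5. It read 0.75, 0.97 and 0.83 in mutants at E9.5, against 0.43, 0.33 and 0.41 in wild types. At E8.5 it read 0.65, 0.59 and 0.90 in mutants, against 0.22, -0.05 and 0.05 in wild types. The mutant stages overlapped, while both stages kept mutants above wild types. The difference was 0.46 ± 0.09 at E9.5 (1.37-fold) and 0.64 ± 0.09 at E8.5 (1.56-fold). Slides gave 0.32 to 0.63 at E9.5 and 0.44 to 0.85 at E8.5. The highest E8.5 mutant was the array with Prl4a1 at 5.69, and without the 4 arrays that stood apart the E8.5 difference was 0.49.

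Groups that do not overlap were not rare on these arrays. At E9.5 the mutants lay wholly above wild types for 7.98% of all genes and wholly below for 9.21%, and at E8.5 for 9.72% and 8.23%. The E9.5 difference minus the E8.5 difference ran from -0.18 ± 0.12 for Ccdc68 to 0.24 ± 0.15 for Exoc3l4. Replicate spread was above the all-gene median SD of 0.08 for Ambp (0.16), Exoc3l4 (0.15), Emid1 (0.13) and Ccdc68 (0.12), and below it for Tmem145 (0.07) and Enpep (0.08).

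**Figure D2:**
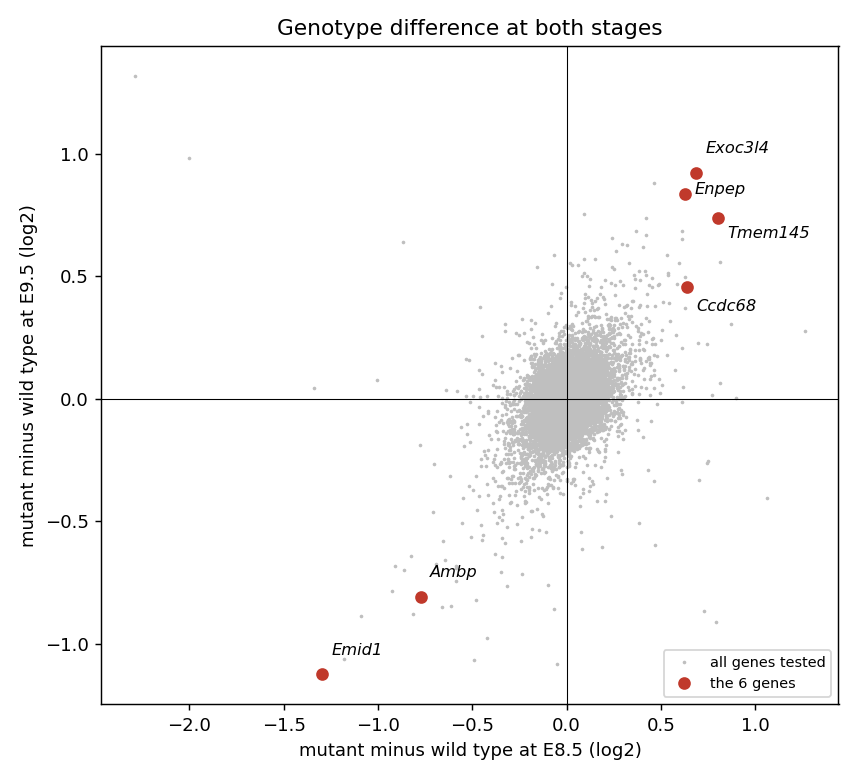
Mutant minus wild type at E8.5 (horizontal, log2) and at E9.5 (vertical, log2) for the 13896 genes tested (grey) and the 6 genes (red), which were picked from these values. Emid1 and Ambp lie at the lower left and the other 4 at the upper right.

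After normalization the differences lay in the yolk sac channel. The Cy5 level of Emid1 differed by -1.23 at E9.5 and -1.34 at E8.5 between mutants and wild types, while its Cy3 level differed by -0.11 and -0.05. For the other 5 genes the Cy3 level of mutants and wild types differed by at most 0.05 in size at either stage. The reference is the same RNA on every array, and its level was close to constant for each gene after average intensities were quantile-normalized between arrays. Before normalization, Cy3 signal above background at E8.5 was 128 to 143 units in mutants against 114 to 125 in wild types for Emid1. For Ambp it was 7839 to 8988 against 7150 to 7533. Exoc3l4 and Tmem145 were likewise higher in mutants without overlap there, while Enpep and Ccdc68 overlapped. At E9.5 the Cy3 ranges overlapped for every gene.

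**Figure D3:**
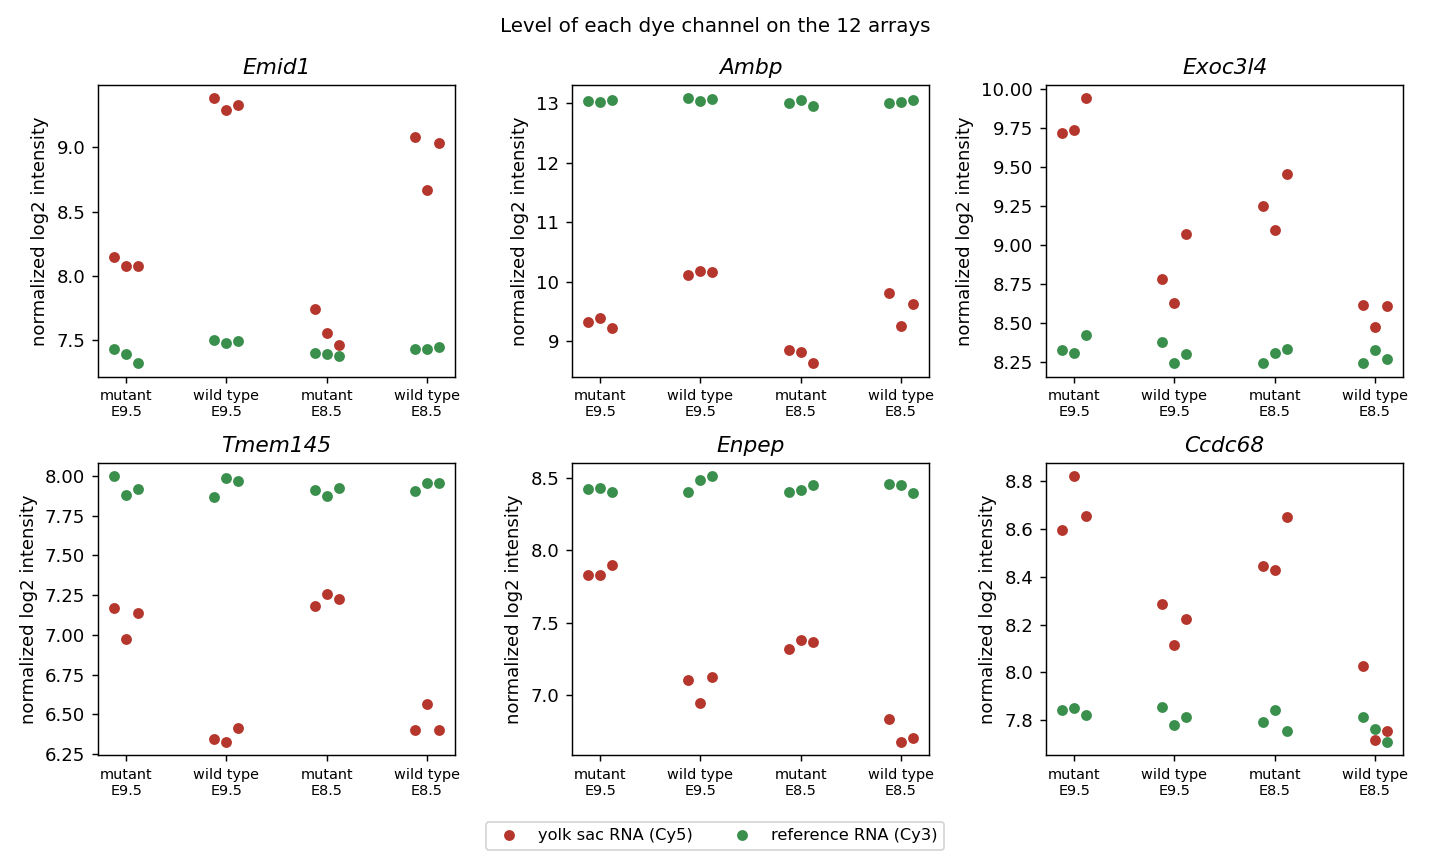
Normalized log2 intensity of yolk sac RNA (red, Cy5) and of the common reference (green, Cy3) for the 6 genes on each array, in mutants and wild types at E9.5 and E8.5. The Cy3 points stay nearly level across groups, and the Cy5 points carry the difference between genotypes.

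The change with stage, E9.5 minus E8.5 averaged over both genotypes, was not used to pick the genes and was tested. Markers of the tissue's layers also moved with stage: 9 of 12 mesothelium and mesenchyme markers rose (list median 0.85) and 1 fell, with summed Cy5 of 24980 to 27910 at E9.5 against 15400 to 16760 at E8.5 in mutants, and 27260 to 29170 at E9.5 against 14660 to 15970 at E8.5 in wild types. Of 14 visceral endoderm markers 6 rose (list median 0.13) and 1 fell. Their part in the stage changes of the 6 genes was not tested. Of the 6 genes, 5 rose and 1 fell by limma with adjustment over all genes, where 18.4% of all genes rose and 18.4% fell (36.8% in all). With median centring in place of loess, which shifts the median of all genes by 0.12 with stage, 3917 genes rose and 231 fell, against 2552 and 2557 with loess. Ambp rose by 0.53 ± 0.07 (1.45-fold, adjusted p = 7.73e-05), and only 2.31% of genes changed as much in size. Its means were -3.72 at E9.5 and -4.23 at E8.5 in mutants, and -2.91 at E9.5 and -3.46 at E8.5 in wild types. Emid1 rose by 0.44 ± 0.07 (1.36-fold, adjusted p = 0.000123), with 0.72 at E9.5 and 0.20 at E8.5 in mutants, and 1.85 at E9.5 and 1.49 at E8.5 in wild types. Both genes that were low in mutants thus rose with stage in either genotype, and Emid1 in E9.5 mutants still lay below E8.5 wild types. Enpep rose by 0.39 ± 0.05 (1.31-fold, adjusted p = 1.59e-05). Exoc3l4 rose by 0.35 ± 0.07 (1.28-fold, adjusted p = 0.00173), and Ccdc68 rose by 0.23 ± 0.06 (1.17-fold, adjusted p = 0.00861). Tmem145 fell by 0.12 ± 0.04 on the log2 scale (-0.12, adjusted p = 0.0389), a size that 39.6% of genes reached. This call on Tmem145 was lost without any 1 of 7 of the 12 arrays (-0.13 to -0.10), and median centring turned it to 0.03 (adjusted p = 0.781).

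**Figure D4:**
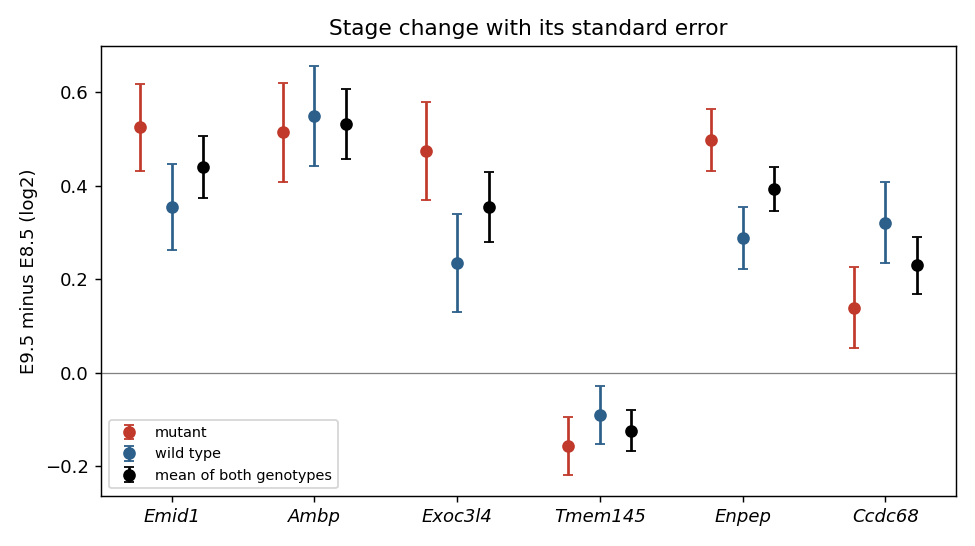
Change from E8.5 to E9.5 (E9.5 minus E8.5, log2, with standard error) of the 6 genes in mutants (red), in wild types (blue) and as the mean of both (black). Tmem145 lies below 0 and the other 5 above it, in each genotype.

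Genes related to the 6 were taken from lists of family and pathway members, 6 lists in all. Stage directions of list genes depend on the scaling. With median centring none of those given as fallen was called by limma, while all those given as risen were called. Exoc5, Gpr108 and Wls then had values of 0.05, 0.02 and 0.03. The limma call on Exoc5 was also lost with processed signals (adjusted p = 0.0517) and offset 16 (0.0775), and that on Wls with offset 16 (0.06). Between genotypes 1 list gene passed the test: Spint1, a membrane-bound Kunitz-type inhibitor in the list of Ambp's bikunin, fell by 0.48 in mutants at E9.5 (-0.48, adjusted p = 0.000927) and by 0.36 at E8.5 (-0.36, adjusted p = 0.0111, limma). Among all genes tested, 1.97% were called at E9.5 and 1.45% at E8.5, and 1661 and 1721 of 13896 had an unadjusted p under 0.05. With median centring Spint1 did not pass (adjusted p = 0.0961 at E9.5 and 0.256 at E8.5). It also rose with stage, by 0.42 ± 0.04. In that list of 12 measured genes besides Ambp, 6 rose with stage and 0 fell by limma, where 18.4% of all genes rose and 18.4% fell. The list median was 0.16 against -0.01 for all genes. The count depends on the scaling, since 9 rose with median centring and 8 with offset 16. The 6 included Rbp4, the retinol carrier of plasma (0.69), and Tfpi, the inhibitor of the tissue factor pathway (0.66). Apom, a lipocalin of lipoproteins (0.23), and Itih2, a heavy chain that bikunin binds (0.22), were also among them. The genotype differences of the heavy-chain gene Itih3, 0.26 at E9.5 (adjusted p = 0.0537) and 0.18 at E8.5, did not pass.

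The angiotensin system and membrane peptidases around Enpep showed 0 of 14 genes called between genotypes at either stage by limma, with 3 at an unadjusted p under 0.05 at E9.5 and 2 at E8.5. Anpep, a related aminopeptidase of brush borders, had differences of 0.25 at E9.5 (adjusted p = 0.114) and 0.25 at E8.5 (adjusted p = 0.121). With processed signals its E8.5 difference was 0.413 and passed (adjusted p = 0.0308, limma). With stage, Anpep rose by 0.19, while the angiotensin receptor gene Agtr1a fell by 0.24 (-0.24), Dpp4 by 0.28 (-0.28) and Ece1, which activates endothelins, by 0.31 (-0.31). Agt, the angiotensin precursor, read -0.12 ± 0.05 with stage and did not pass (adjusted p = 0.0805).

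Of the other EMI-domain genes, 0 of 10 were called between genotypes by limma, with 1 at an unadjusted p under 0.05 at E9.5 and 4 at E8.5. Emilin2, an elastic-fibre glycoprotein, had differences of -0.24 at E9.5 and -0.28 at E8.5 that did not pass (adjusted p = 0.257 and 0.181). With stage, the closest relative Col26a1 rose by 0.54 and the multimerin Mmrn1 by 0.16, while Emilin2 and Megf10 fell (-0.34 and -0.15).

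The exocyst list had 0 of 13 genes called between genotypes by limma, with 0 at an unadjusted p under 0.05 at E9.5 and 1 at E8.5. It holds Tnfaip2, a Sec6-related gene that is also the chromosomal neighbour of Exoc3l4, at -0.028 at E9.5 and -0.0031 at E8.5. With stage, Exoc7 rose (0.20) and Exoc5, Exoc8 and Exoc3l2 fell (-0.15, -0.22 and -0.23). The GOST family had 0 of 6 genes called between genotypes, with 0 at an unadjusted p under 0.05 at E9.5 and 3 at E8.5 (limma). Gpr107, Gpr180 and Tmem87b rose with stage (0.21, 0.15 and 0.24), and Gpr108 and Wls, the carrier of Wnt proteins, fell (-0.14 and -0.15). The centriolar list had 0 of 15 genes called between genotypes, with 2 at an unadjusted p under 0.05 at E9.5 and 3 at E8.5 (limma). Dctn1, a subunit of dynactin, rose with stage (0.20), and Nin, Cep83 and Mapre1 fell (-0.14, -0.27 and -0.31).

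The 3 nearest tested genes on each side of each of the 6 were also compared, 36 in all. Between genotypes 1 was called: Elovl6, a fatty acid elongase next to Enpep, fell in mutants at E8.5 (-0.30 ± 0.06, adjusted p = 0.0363), opposite in sign to Enpep, and read -0.19 at E9.5 (adjusted p = 0.187, limma). The E8.5 call was lost with offset 16 (adjusted p = 0.0616), processed signals (0.0676) and median centring (0.327). With stage 5 of the 36 rose and 4 fell, where 18.4% of all genes rose and 18.4% fell. Those that rose included Cfi, a complement protease near Enpep (1.91), and Xbp1, a secretory-pathway regulator near Emid1 (0.44). None of the 4 that fell was called with median centring.

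Genes whose log2 ratios ran most like each of the 6 over the 12 arrays were named by Pearson's r as a description. The points share the arrays and the 4 groups, so r mostly follows the group means. Emid1 ran most like Pafah2, a phospholipase (r = 0.973), Grtp1 (r = 0.960) and Ambp (r = 0.955). Ambp ran like Galnt3, which starts mucin-type O-glycans (r = 0.973), Slc16a9 (r = 0.964) and Grtp1 (r = 0.962). Pafah2 differed by -0.68 between mutants and wild types at E9.5 and by -0.59 at E8.5, and Galnt3 by -0.41 and -0.36. Enpep was close to Slc22a6, a transporter of organic anions (r = 0.962), Naprt, of NAD synthesis (r = 0.962), and Aadac, a microsomal esterase (r = 0.962). Exoc3l4 was close to Prrg2 (r = 0.974), Enpep (r = 0.959) and Cd40, a receptor of antigen-presenting cells (r = 0.959). Ccdc68 was close to Cldn3, a tight-junction protein (r = 0.955), Cd40 (r = 0.951) and Timd2, a ferritin receptor in mice (r = 0.942). Tmem145 was nearest to Leap2, a liver-type peptide (r = 0.960), Vwa1, of the matrix (r = 0.933), and Ap2b1, of clathrin adaptors (r = 0.924). A high r does not mean a difference of like size. Cd40 differed between mutants and wild types by only 0.10 at E9.5 and 0.08 at E8.5, and Ap2b1 by 0.19 and 0.14.

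The genotype differences of the 6 genes changed in size with the handling of signals. With median centring, offset 16 or processed signals all 12 of them kept their signs. Tmem145 ran from 0.71 to 1.53 at E9.5 and from 0.72 to 1.58 at E8.5, and Emid1 from -1.26 to -1.12 and from -1.52 to -1.29.

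**Figure D5:**
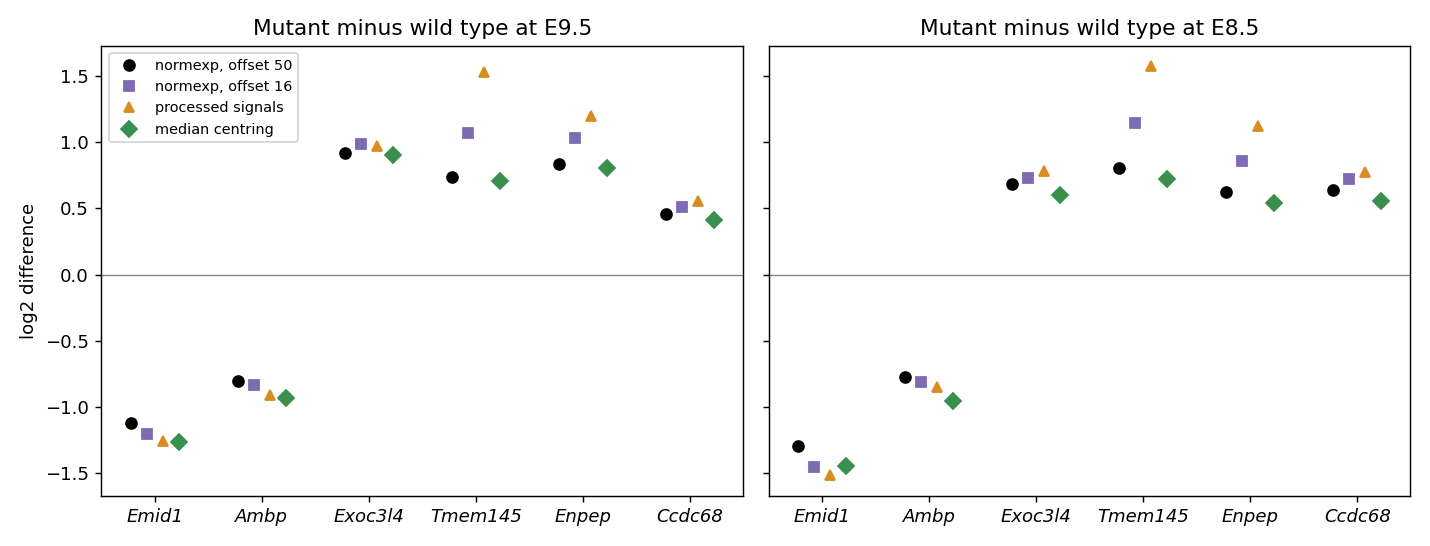
Mutant minus wild type (log2) of the 6 genes at E9.5 and at E8.5 with normexp and offset 50, normexp and offset 16, the scanner software's processed signals, and median centring in place of loess. All points keep their sign; those of Tmem145 and Enpep spread most.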

How the data were processed

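Yolk sac RNA was measured on 12 Agilent 2-colour arrays in 4 groups of 3. Per the labels, Cy5 marked yolk sac RNA and Cy3 the common reference on every array. The deposited files hold the mean intensity and median local background intensity of each spot and channel, without normalization, extracted with Agilent Feature Extraction 9.5.1.1 per the file headers. They also hold processed intensity values, background-subtracted, detrended and LOWESS-normalized, and their log10 ratio, per the file headers. A deposited series table holds log2 ratios that the authors centred on each probe's median. How its probes were filtered is not stated. Its values correlated at r = 1 on every array with the processed ratios, once these were centred on each probe's median too.

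In R 4.3.3 with data.table at version 1.17.8 and limma 3.58.1, background was removed by normexp (offset 50) and ratios were normalized by loess within each array, control spots at weight 0. Spots over 20 units below local background were set to missing. Probes were kept if at least 1 group had Cy5 well above background on its 3 arrays, and each gene was its brightest kept probe. This left 20065 probes and 13896 genes. Of these genes, 176 were not well above background in Cy3 on any array. Of 41174 probes, 23374 were named through accessions, 6733 through current symbols and 2919 through older ones. Limma was fitted with 4 group means to 12 arrays (8 residual degrees of freedom), and an adjusted p under 0.05 was a call. Errors after ± are the fit's standard errors. Normalized levels of single channels and summed Cy5 were taken after average intensities were also quantile-normalized between arrays in limma. The pipeline was tested on simulated data.

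The 6 genes, the gene lists and the alternatives were chosen with earlier results of these data known. Named genes were the 6, list genes and neighbours that were called, and the 3 genes most like each by Pearson's r; Itih3, Anpep and Agt, Tnfaip2 and genotype values of Emilin2 were added after their values were seen. Replicate numbers coincide with the grid name and scan order in the file headers, which were taken as the slide, although the barcode of slide 2 is repeated in the files of slide 3. The pairing rests on these headers. Deviations of same-numbered arrays correlated at 0.0784 to 0.381, all but 1 over 0.1, and slide, scan and any earlier batch cannot be told apart. Alternatives were processed signals, median centring, offset 16, other filters, every probe, the replicate block, the deposited table, leaving out each array, and leaving out the 4 arrays that stood apart, the last chosen after seeing the data. Sequences and neighbours come from RefSeq (GRCm38.p6).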

Additional observations from a re-analysis of the deposited data

How the results depend on the processing

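The stage changes of Emid1, Ambp, Exoc3l4, Enpep and Ccdc68 kept their sign and call under all alternatives run, and Tmem145's was reversed by median centring (0.0295) and lost its call without 7 single arrays and without the 4 arrays that stood apart (-0.13, adjusted p = 0.104). Genotype differences of the 6 genes kept their sign under all of them. Tmem145 moved most, to 1.53 at E9.5 and 1.58 at E8.5 with processed signals. The stage change of Ccdc68 was 0.42 under median centring, and those of Exoc3l4 and Enpep 0.57 and 0.63 under median centring and processed signals. Median centring shifts the median of all genes by -0.06 and -0.09 between genotypes at E9.5 and E8.5. Over all genes, calls between genotypes at E9.5 were 274 in the main setting, 173 with processed signals, 181 with the deposited table and 26 with median centring (5 higher, 21 lower). At E8.5 they were 201, and 10 with median centring (2 higher, 8 lower). Leaving out single arrays gave 145 to 369 calls at E9.5, 91 to 221 at E8.5 and 4464 to 5024 for stage, the lowest at E9.5 without wild-type replicate 2 (145) and at E8.5 without mutant replicate 2 (91). With the replicate block, which pairs arrays by number, there were 361 calls at E9.5, 293 at E8.5 and 5665 for stage against 5109, and it changed no call on the 6 genes. Tmem145 and Enpep were dim in Cy5, and the sizes of their genotype differences changed with the background step. The causes were not tested.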
